A study of Mus musculus with 4 samples.

Results

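Heat-shock-high microglia were taken from 4 single-cell RNA libraries of brain myeloid cells as the cell barcodes in which Hspa1a, Hspa1b and Dnajb1 together held at least 10 of every 10000 UMIs (unique molecular identifiers, counted as RNA molecules). This gave 1999 of 12883 kept barcodes. Barcodes were kept from 2000 UMIs and 500 genes upwards, with mitochondrially encoded genes giving no more than 10% of their UMIs. A further 4193 kept barcodes had no UMI of the 3 genes and are called zero barcodes, and 6691 lay between. All libraries came from mice of the APP/PS1 amyloid model, labelled female and 4 months old, and the cells were sorted as CD11b+ and CD45+ from the left hemisphere after a Percoll gradient. There were 2 libraries of genotype APP/PS1:miR-155 cKO, whose titles describe a microglial deletion of this microRNA, and 2 Control libraries of genotype APP/PS1. The Cre driver and the deleted part of the locus were not given in the sources used here. The labels call the libraries biological replicates and do not say how many mice each one holds, so p-values measure the spread between libraries, which may be partly technical.

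The heat-shock response is a transcriptional programme that heat-shock factor 1 (Hsf1) drives when unfolded proteins accumulate in the cytosol. Hspa1a and Hspa1b are near-identical genes for the inducible HSP70 chaperone, and Dnajb1 encodes a J-domain co-chaperone that hands clients to HSP70. In brain tissue taken apart for sorting, heat-shock genes and immediate-early genes such as Fos are known to be induced during handling. In mice with amyloid deposits, microglia near plaques are known to take on a disease-associated or neurodegenerative state (MGnD) with high Apoe, Cst7, Clec7a and Lpl and with lower homeostatic genes such as P2ry12.

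The files held 33130800 to 47574406 UMIs per library, and the kept barcodes had median depths of 6412 to 7431 UMIs. No pair of libraries shared more than 4 kept barcodes. Control replicate 1 stood apart from its female label. Xist, the RNA that coats the inactive X chromosome, had 2015 and 1919 CPM (counts scaled to a fixed library total) in heat-shock-high barcodes of cKO replicates 1 and 2, 2.72 in Control replicate 1 (7 UMIs) and 2102 in Control replicate 2. The Y-linked genes Ddx3y, Eif2s3y, Kdm5d and Uty had 0 or 1 UMI each in the heat-shock-high barcodes of every library. The run code in the deposited name of cKO replicate 2 differed from that of the rest, and no label says what the code stands for. Mir155hg, the host transcript of miR-155, had 1 UMI in all kept barcodes of each cKO library, against 7 and 11 UMIs in Control replicates 1 and 2, and a 3′ tag outside the deleted part would not check the deletion.

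Heat-shock-high barcodes made up 16.6% of kept barcodes in cKO replicate 1 (596 of 3585, 95% Wilson interval 15.4 to 17.9%) and 32.2% in cKO replicate 2 (858 of 2666, 30.4 to 34.0%). They made up 9.40% in Control replicate 1 (376 of 3999, 8.54 to 10.3%) and 6.42% in Control replicate 2 (169 of 2633, 5.54 to 7.42%). These intervals cover counting error only. Both cKO libraries were above both Control libraries. The mean was 24.4 ± 11.0% in cKO and 7.91 ± 2.11% in Control libraries (SD, n = 2 each), and an exact two-sided permutation test gave p = 0.333, the smallest that 2 libraries against 2 allow. The difference of 16.5 percentage points rested in part on cKO replicate 2, and it was 8.71 points without that library and 18.0 points without Control replicate 1. With every kept barcode thinned to 2000 UMIs and at least 2 UMIs of the 3 genes asked for, the shares were 23.2% and 37.8% in the cKO libraries, against 16.0% and 10.4% in the Control libraries.

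The same 3 genes were also measured in free RNA, that is, in barcodes of at most 100 UMIs. There they summed to 4.84 UMIs per 10000 in cKO replicate 1 and 11.7 in cKO replicate 2, against 4.02 and 2.21 in the Control libraries. In kept barcodes the levels were 4.89 and 8.91 in the cKO libraries and 3.23 and 2.34 in the Control libraries. In cKO replicate 2 the free RNA level was thus above the membership threshold of 10, and in the other 3 libraries it was below it. The order of the 4 libraries was the same in free RNA as in kept barcodes and in the shares, and the part of free RNA in the shares was not tested.

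**Figure D1:**
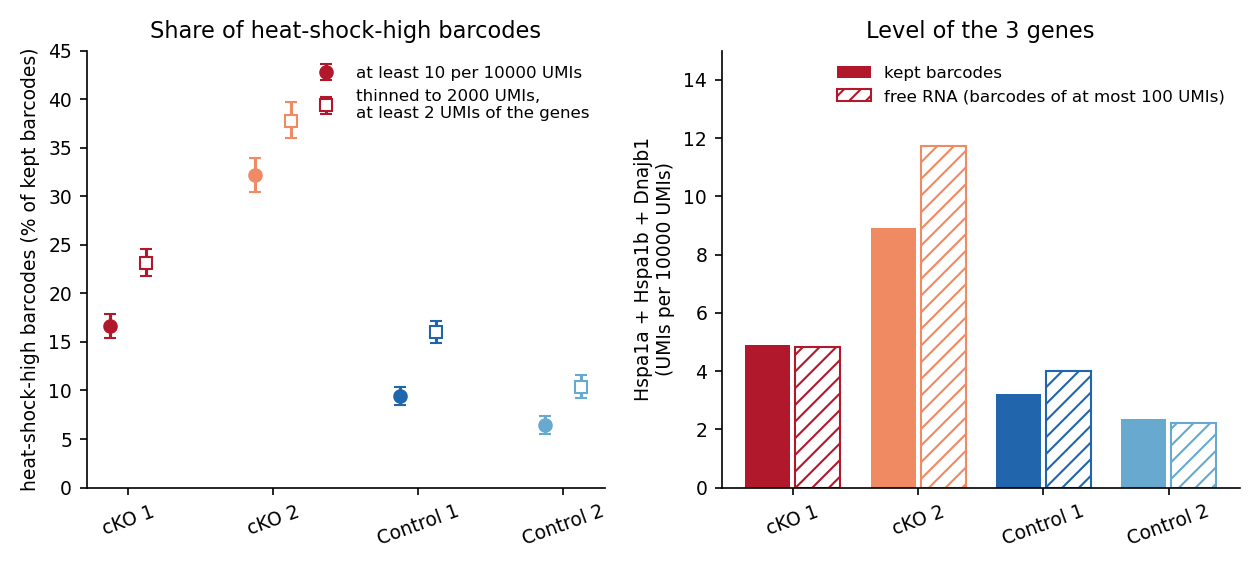
Left, the percent of kept barcodes that were heat-shock-high in each library, as chosen (filled circles) and after thinning to 2000 UMIs (open squares), with 95% Wilson intervals. Right, the summed level of Hspa1a, Hspa1b and Dnajb1 in UMIs per 10000 in kept barcodes (solid bars) and in free RNA (hatched bars). The shares of 16.6% and 32.2% in the cKO libraries lie above 9.40% and 6.42% in the Control libraries, and cKO replicate 2 is highest in both panels.

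Among themselves the heat-shock-high barcodes were graded rather than set apart by a gap. The median summed level of the 3 genes was 15.7 and 19.4 UMIs per 10000 in the cKO libraries, against 15.2 and 14.7 in the Control libraries. Just inside the threshold, 213 barcodes lay between 10 and 11, and just outside it 261 lay between 9 and 10. Hspa1a was detected in 83.4 to 88.3% of heat-shock-high barcodes and Dnajb1 in 58.2 to 82.3%, with the highest share of both in cKO replicate 2. These values chose the barcodes and are given as a description. Hspa1a and Hspa1b are near-identical, and how reads that fit both copies were counted was not checked. The level of either alone, and of the sum, is therefore uncertain.

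By their markers these barcodes were microglia. All 12 microglia markers were detected, each in 79.3 to 100% of heat-shock-high barcodes of every library. P2ry12, a purinergic receptor of resting microglia, was found in 98.7 to 99.6%. Markers of other cells were mostly rare, with exceptions. Erythroid markers were at 0 (3 of 3), as were 4 of 6 neutrophil and 3 of 5 T and NK cell markers. The B cell marker Cd79a was at 0, while Ighm was detected in 68.1 to 78.3% of the barcodes. In zero barcodes matched on depth Ighm was detected in 63.9 to 73.7%. The most often detected oligodendrocyte and endothelial or mural markers were Mag and Pecam1. In the 2 cKO and then the 2 Control libraries, Mag was detected in 13.8%, 17.8%, 17.4% and 13.6% of heat-shock-high barcodes. Matched zero barcodes had it in 10.4%, 14.4%, 10.2% and 9.47%. For Pecam1 the shares were 15.6%, 14.6%, 13.4% and 12.4%, against 9.52%, 10.6%, 6.70% and 14.2%. Mbp, another oligodendrocyte marker, was at 15.6%, 14.4%, 14.75% and 14.8%, against 18.2%, 17.2%, 13.9% and 15.4%. The summed level of border-associated macrophage markers was 31.4 and 3.56 CPM in heat-shock-high barcodes of cKO replicates 1 and 2, and 13.4 and 29.3 in those of Control replicates 1 and 2, against 8.88, 10.4, 5.69 and 1.93 in the zero barcodes of the same libraries. Monocyte markers summed to 10.9 to 80.2 CPM in heat-shock-high barcodes and to 8.70 to 40.2 in zero barcodes.

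For expression, heat-shock-high barcodes were set against zero barcodes of the same library. Both kinds were drawn to the same number at each depth, 578, 472, 373 and 169 of each in the 2 cKO and then the 2 Control libraries. In cKO replicate 2 only 472 of 858 heat-shock-high barcodes were thus used, against 578 of 596, 373 of 376 and 169 of 169 elsewhere. UMIs were summed per library and kind, and edgeR's quasi-likelihood test with the library as a block compared the sums, with the 3 chosen genes left out. From here levels are CPM scaled with TMM factors. Of 10858 genes tested, 2186 (20.1%) passed, 863 (7.95%) higher and 1323 (12.2%) lower in heat-shock-high barcodes at a Benjamini-Hochberg adjusted p under 0.05. The median log2 difference of all tested genes was 0.027. Without Control replicate 1 the counts were 581 higher and 1057 lower. At matched depth, heat-shock-high barcodes held more genes in 4 of 4 libraries, by 50.9 on average, and had a lower mitochondrial percent in 4 of 4, with a mean difference of -0.447 points. Their Scrublet doublet score was higher in 4 of 4, by 0.00728 on average. Each of the 3 had an exact sign-flip p of 0.125, the smallest that 4 libraries allow, and their part in the differences below was not tested. Barcodes with at least 2 markers of another cell class made up 4.87% and 8.04% of heat-shock-high barcodes in the cKO libraries and 6.38% and 4.14% in the Control libraries, against 4.10%, 2.31%, 4.36% and 4.09% of zero barcodes. Without such barcodes 2008 genes passed, and 2198 without the highest Scrublet scores.

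Several chaperone genes outside the 3 chosen ones were higher, and the largest differences among them were in Hsph1, Hspb1, Dnajb4 and Dnaja1. Hsph1, an HSP110 that exchanges nucleotide on HSP70, had 30.8 and 60.6 CPM in heat-shock-high barcodes of cKO replicates 1 and 2 and 25.5 and 27.4 CPM in those of Control replicates 1 and 2, against 16.9, 17.6, 8.57 and 10.4 CPM in the zero barcodes of the same libraries. It was higher in every library, by 1.40 ± 0.14 on the log2 scale (edgeR estimate ± SE, adjusted p = 1.42e-09). Hspb1, the small heat-shock protein HSP27, had 33.7, 37.6, 28.9 and 35.3 CPM in heat-shock-high barcodes, against 16.6, 19.8, 6.86 and 12.5 CPM in zero barcodes, in the same order of libraries. Its log2 difference was 1.18 ± 0.14 (edgeR, adjusted p = 6.92e-08).

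Among the J-domain proteins, which deliver clients to HSP70, Dnaja1 reached 356, 537, 395 and 399 CPM in heat-shock-high barcodes of the 2 cKO and then the 2 Control libraries, against 203, 279, 232 and 236 CPM in zero barcodes, without overlap. Its log2 difference was 0.83 ± 0.05 (edgeR, adjusted p = 1.07e-14), and that of Dnajb4 was 0.91 ± 0.07 (edgeR, adjusted p = 4.99e-12). Dnajb14, an endoplasmic reticulum J-domain protein, fell by 0.49 (edgeR, adjusted p = 9.49e-06), and the other 9 of 12 in the list did not pass. In the list of 12, 2 were higher and 1 lower, beside 7.95% higher and 12.2% lower over all genes.

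In the HSP90 system, Hsp90aa1, the inducible cytosolic HSP90, had 562 and 698 CPM in heat-shock-high barcodes of the cKO libraries and 544 and 552 CPM in those of the Control libraries, against 379, 402, 361 and 317 CPM in zero barcodes. Its log2 difference was 0.68 ± 0.05 (edgeR, adjusted p = 7.25e-13). Hsp90ab1, the constitutive form, was higher by 0.53 ± 0.05 (edgeR, adjusted p = 1.57e-10). The co-chaperones Ahsa1 and Chordc1 differed by 0.32 and 0.30 (edgeR, adjusted p = 0.0153 and 0.0122). Without cKO replicate 2 these were 0.20 and 0.19 and neither passed, and without cKO replicate 1 Chordc1 at 0.31 did not pass. In all, 4 of 14 genes of the HSP90 list were higher and 1 was lower, beside 7.95% higher and 12.2% lower over all genes.

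In the other chaperone lists the counts of higher genes were small. All counts there are to be read beside the 7.95% of all genes that were higher and the 12.2% that were lower. Of 14 HSP70 system genes, 2 were higher and 3 lower. Hspa8, the constitutive HSP70, was higher by 0.27 ± 0.04 (edgeR, adjusted p = 1.20e-05). Bag1, an HSP70 nucleotide exchange factor, had 106 and 102 CPM in heat-shock-high barcodes of the cKO libraries and 108 and 128 CPM in those of the Control libraries, against 202, 152, 192 and 175 CPM in zero barcodes. It was lower in every library (log2 difference -0.74 ± 0.07, edgeR, adjusted p = 1.67e-10). Hspa4 had a log2 difference of -0.24 (edgeR, adjusted p = 0.00805), which did not pass without cKO replicate 1. No mitochondrial chaperone of 10 was higher and 1 was lower, Hspe1 at -0.16 (edgeR, adjusted p = 0.0365), a call lost without cKO replicate 1 or either Control replicate. The Hspe1 difference was 0.15 at a membership threshold of 20 and 0.12 without the state-high barcodes described below, and neither passed. No TRiC or prefoldin subunit of 13 was higher and 3 were lower, and of 17 endoplasmic reticulum chaperones and unfolded protein response genes 2 were higher and 5 lower, Calr among the lower at -0.25 (edgeR, adjusted p = 4.04e-05). Hsf1 itself had 24.0, 28.0, 29.7 and 32.3 CPM in heat-shock-high barcodes, against 22.6, 26.8, 29.6 and 16.7 CPM in zero barcodes, and the difference of 0.13 ± 0.13 did not pass (edgeR, adjusted p = 0.524). Ier5, an immediate-early gene whose product acts on Hsf1, was higher by 0.40 ± 0.04 (edgeR, adjusted p = 1.09e-08).

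**Figure D2:**
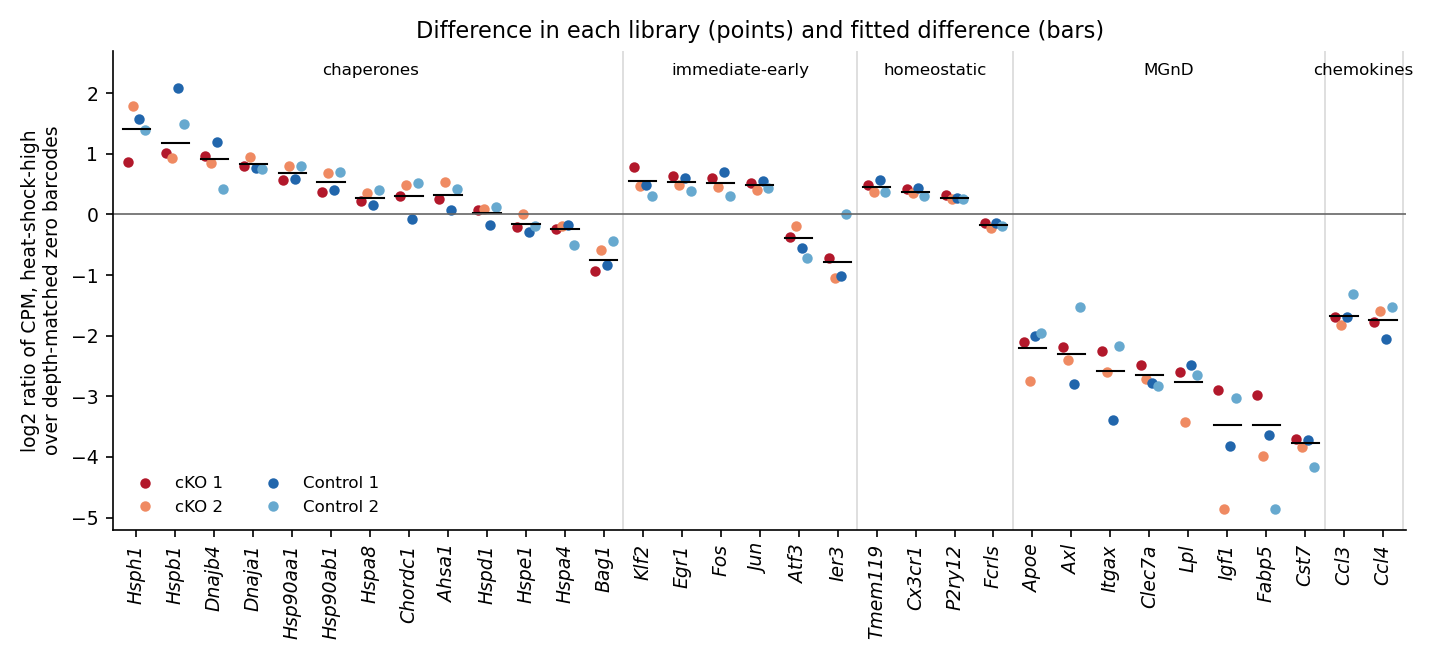
The log2 ratio of CPM in heat-shock-high over depth-matched zero barcodes for named genes, with 1 point per library and a bar at the edgeR estimate. The 4 points of Hsph1, Hspb1, Dnajb4, Dnaja1, Hsp90aa1 and Hsp90ab1 lie above 0 and those of Bag1 and of the MGnD genes below it.

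Promoter windows of some of these genes are printed because Hsf1 binds heat-shock elements, repeated GAA blocks in alternating direction. RefSeq windows on GRCm38.p6 run from 250 bases before to 50 bases after each start. A run of 3 blocks was sought as GAANNTTCNNGAA or TTCNNGAANNTTC, which are each other's reverse complement, and a run of 2 blocks as GAANNTTC or TTCNNGAA, which also lie within the longer runs. Runs of 3 blocks occur in 0.603% and runs of 2 in 15.1% of all 32851 windows, and a gene has at least 1 such window in 0.662% and 17% of genes. Of the 7 chaperone, heat-shock factor and feedback genes that were higher and were searched, 2 held a run of 3 blocks (Hsph1 and Chordc1) and 5 a run of 2 (also Hspb1, Dnaja1 and Dnajb4). Hsp90aa1, Hsp90ab1 and Hspa8 were not used here. Of the other 47 such genes, 3 held a run of 3 blocks, among them Hspe1 and Hspd1, and 14 a run of 2. Among the chosen genes, the windows of Hspa1a and Hspa1b held a run of 2 blocks and those of Dnajb1 held none. Capitals below mark the runs of 3 blocks, or of 2 where there were none. A match is a description of letters and not a measured binding site.
Hspa1a, chr17:34972107-34972406, minus strand: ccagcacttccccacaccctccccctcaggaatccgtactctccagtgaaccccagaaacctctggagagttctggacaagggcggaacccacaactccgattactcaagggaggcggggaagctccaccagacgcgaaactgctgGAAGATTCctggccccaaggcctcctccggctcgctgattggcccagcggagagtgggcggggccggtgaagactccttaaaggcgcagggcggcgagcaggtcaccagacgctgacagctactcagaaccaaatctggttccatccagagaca
Hsph1, chr5:149636287-149636586, minus strand: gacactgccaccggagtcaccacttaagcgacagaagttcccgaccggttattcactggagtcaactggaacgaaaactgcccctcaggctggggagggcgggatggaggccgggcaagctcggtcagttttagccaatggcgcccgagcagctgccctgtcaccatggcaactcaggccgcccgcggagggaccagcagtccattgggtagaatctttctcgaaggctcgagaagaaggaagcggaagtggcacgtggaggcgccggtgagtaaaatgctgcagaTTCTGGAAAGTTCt
Hspb1, chr5:135887669-135887968, plus strand: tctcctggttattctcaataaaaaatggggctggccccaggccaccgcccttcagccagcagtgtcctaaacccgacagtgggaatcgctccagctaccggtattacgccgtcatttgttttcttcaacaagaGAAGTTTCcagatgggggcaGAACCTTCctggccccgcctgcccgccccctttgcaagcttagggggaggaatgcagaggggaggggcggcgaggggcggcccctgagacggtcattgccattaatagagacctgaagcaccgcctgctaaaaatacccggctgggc
Dnaja1, chr4:40722218-40722517, plus strand: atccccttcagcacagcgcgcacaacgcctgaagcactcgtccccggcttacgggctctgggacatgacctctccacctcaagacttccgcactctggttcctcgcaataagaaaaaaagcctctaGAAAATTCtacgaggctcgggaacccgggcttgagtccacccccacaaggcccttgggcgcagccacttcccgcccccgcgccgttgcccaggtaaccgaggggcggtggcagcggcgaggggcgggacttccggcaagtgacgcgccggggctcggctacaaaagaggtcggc
Chordc1, chr9:18292017-18292316, plus strand: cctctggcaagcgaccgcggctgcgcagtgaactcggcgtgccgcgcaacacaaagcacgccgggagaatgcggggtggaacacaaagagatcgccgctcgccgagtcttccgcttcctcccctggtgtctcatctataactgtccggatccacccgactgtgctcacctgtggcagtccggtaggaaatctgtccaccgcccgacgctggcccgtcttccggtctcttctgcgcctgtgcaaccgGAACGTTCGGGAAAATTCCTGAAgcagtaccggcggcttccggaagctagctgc
Hspe1, chr1:55087898-55088197, plus strand: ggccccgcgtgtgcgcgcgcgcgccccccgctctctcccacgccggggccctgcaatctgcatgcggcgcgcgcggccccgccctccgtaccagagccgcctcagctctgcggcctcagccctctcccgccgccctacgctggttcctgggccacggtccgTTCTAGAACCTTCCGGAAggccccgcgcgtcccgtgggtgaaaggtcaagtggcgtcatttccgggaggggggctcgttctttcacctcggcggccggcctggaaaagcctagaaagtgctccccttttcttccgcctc
Hspe1 is shown because its window holds overlapping runs of 3 blocks while the gene was not called higher in heat-shock-high barcodes, at 251 and 255 CPM in the cKO and 232 and 235 CPM in the Control libraries, against 290, 253, 284 and 268 CPM in zero barcodes. In barcodes with 20 or more UMIs of the 3 chosen genes per 10000, Hspe1 had 311 and 294 CPM, without TMM scaling, in the cKO libraries and 240 and 206 in the Control libraries, against 275, 251, 277 and 278 in zero barcodes, so the cKO libraries were above their zero barcodes and the Control libraries below.

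Immediate-early genes, which are transcribed within minutes of a stimulus, were mostly higher. Of 25 tested, 15 were higher and 3 lower, with a median log2 difference of 0.31. Over all genes 7.95% were higher and 12.2% lower. Fos, a subunit of the AP-1 factor, had 1545 and 2008 CPM in heat-shock-high barcodes of the cKO libraries and 1592 and 1208 CPM in those of the Control libraries, against 1023, 1465, 982 and 978 CPM in zero barcodes, and the ranges overlapped. It was higher within every library, by 0.53 ± 0.05 (log2, edgeR, adjusted p = 7.77e-11). Jun, its partner, differed by 0.48 ± 0.04 (edgeR, adjusted p = 3.62e-12) and Egr1, a zinc-finger factor, by 0.53 ± 0.04 (edgeR, adjusted p = 6.73e-12). The list summed to 11180 and 19210 CPM in free RNA of the cKO libraries and to 11910 and 9029 in Control, without TMM scaling. All zero barcodes held 14460, 18570, 13670 and 12110, so the free RNA level was above them in cKO replicate 2 only. The part of free RNA in these differences was not tested. The 3 lower genes, named after their values were seen, were Maff at -1.09, Ier3 at -0.78 and Atf3 at -0.39 (edgeR, adjusted p = 0.000129, 1.08e-08 and 5.68e-05). Of the integrated stress response list, 2 of 7 tested genes were higher and none lower (edgeR, adjusted p under 0.05), namely Ppp1r15a, a phosphatase subunit that restores translation, at 0.43 ± 0.06, and Ddit4, an inhibitor of mTORC1, at 0.68 ± 0.19. The Ddit4 call was lost without cKO replicate 1. Of 19 genes of nuclear RNA and splicing, 11 were higher and none lower, among them the long noncoding RNA Malat1 at 0.36 and the splicing factor gene Hnrnpa2b1 at 0.39 (edgeR, adjusted p = 1.99e-10 and 1.32e-08). Without barcodes in the states described below, 4 of 19 were higher, beside 102 of 10128 over all genes.

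Homeostatic microglia genes were higher and MGnD genes far lower. Tmem119, a surface protein that marks resident microglia, had 1206 and 1335 CPM in heat-shock-high barcodes of the cKO libraries and 1185 and 1184 CPM in those of the Control libraries, against 866, 1032, 802 and 916 CPM in zero barcodes, without overlap. Its log2 difference was 0.45 ± 0.04 (edgeR, adjusted p = 3.83e-10). P2ry12 differed by 0.27 ± 0.04 (edgeR, adjusted p = 6.18e-07) and the fractalkine receptor Cx3cr1 by 0.38 ± 0.04 (edgeR, adjusted p = 8.09e-10). Of the 20 listed genes 12 were higher and 1 was lower, beside 7.95% higher and 12.2% lower over all genes. The lower one was Fcrls, an Fc receptor-like scavenger named after its value was seen, at -0.17 (edgeR, adjusted p = 0.0011).

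All 29 tested genes of the MGnD list were lower, beside 12.2% over all genes, with a median log2 difference of -2.04. Cst7, which encodes the protease inhibitor cystatin F, had 83.3 and 53.3 CPM in heat-shock-high barcodes of the cKO libraries and 89.1 and 37.2 CPM in those of the Control libraries, against 1080, 757, 1169 and 668 CPM in zero barcodes. The groups lay far apart, at a log2 difference of -3.77 ± 0.06 (edgeR, adjusted p = 1.34e-30). Apoe, the lipid carrier apolipoprotein E, had 1534, 755, 1177 and 1249 CPM in heat-shock-high barcodes of the 2 cKO and then the 2 Control libraries, against 6570, 5059, 4715 and 4841 CPM in zero barcodes. Its difference was -2.21 ± 0.07 (edgeR, adjusted p = 7.43e-22). The lipase gene Lpl differed by -2.77, the beta-glucan receptor gene Clec7a by -2.65, the growth factor gene Igf1 by -3.47, Fabp5, a fatty-acid binding protein, by -3.47, Spp1, which encodes osteopontin, by -3.83 and Ch25h, a cholesterol hydroxylase, by -3.59 (edgeR, adjusted p from 8.61e-25 for Clec7a to 3.26e-16 for Ch25h).

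The comparison was also made without state-high barcodes. In this alternative added after seeing the data, barcodes in any of the 4 states defined below were left out of both kinds, by a filter that itself uses MGnD genes. Then 510 of 10128 genes passed, 102 higher and 408 lower, and 26 of 27 tested MGnD genes were lower with a median of -0.94. Cst7 was at -2.97 and Apoe at -1.56. The chaperone differences were 1.50 for Hsph1, 0.73 for Dnaja1 and 0.62 for Hsp90aa1, and all 3 passed. Of the homeostatic list 4 were higher and 2 lower there, with Tmem119 at 0.13 and P2ry12 at 0.04, and P2ry12 did not pass (edgeR, adjusted p under 0.05 in each count).

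Groups of housekeeping and immune genes were lower as well, and their counts are to be read beside the 12.2% of all genes that were lower. All 52 cytosolic ribosomal protein genes were lower, with a median log2 difference of -0.66, and all 13 mitochondrially encoded genes, with a median of -0.53. Without state-high barcodes these were 52 of 52 with a median of -0.36 and 12 of 13 with -0.36. In free RNA the summed levels of both groups were also below those of all zero barcodes in every library. The same held there for the homeostatic genes, which were mostly higher in heat-shock-high barcodes. The part of free RNA in these differences was not tested. Of 13 glycolysis genes 10 were lower and none higher, led by the pyruvate kinase gene Pkm at -1.11 and including Gapdh at -0.90. In the lysosomal and phagocytic list of 30 genes, 21 were lower and 3 higher, the protease cathepsin B (Ctsb) being at -0.92. For Ctsb the levels were 1272, 1148, 1272 and 1304 CPM in heat-shock-high barcodes, against 2436, 2159, 2650 and 2160 CPM in zero barcodes.

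Of 20 cytokine and chemokine genes 9 were lower and 1 higher. The counts of this and the next lists stand beside 12.2% lower and 7.95% higher over all genes. Ccl3, which attracts other leukocytes, had 297 and 277 CPM in heat-shock-high barcodes of the cKO libraries and 247 and 338 CPM in those of the Control libraries, against 962, 983, 799 and 840 CPM in zero barcodes (log2 difference -1.67 ± 0.06, edgeR, adjusted p = 1.46e-21). Ccl4, its close relative, differed by -1.74 ± 0.06 (edgeR, adjusted p = 1.46e-21). Of 29 type I interferon genes 12 were lower and none higher, of 8 MHC class II genes 5 were lower and none higher, with the invariant chain gene Cd74 at -0.84, and both tested metallothioneins were lower, with Mt2 at -1.82. Of 31 proteasome genes 8 were lower and none higher. Of 19 cell cycle genes 15 were lower and none higher, with Mki67, a marker of dividing cells, at 6.59, 0.505, 0 and 0 CPM in heat-shock-high barcodes, against 76.4, 23.5, 22.3 and 4.18 CPM in zero barcodes. Without state-high barcodes 8 cell cycle genes were tested and 1 was lower, beside 408 of 10128 over all genes.

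By size of change, among genes past the threshold with an average log2 CPM of at least 4 and one direction in every library, the highest outside these lists included Plac8, Ggta1, Ly6a, Il7r, Tom1l1, Trim65 and Mid1, at 0.59 to 0.81 on the log2 scale. Ggta1, a galactosyltransferase, had 53.2, 52.8, 57.1 and 49.0 CPM in heat-shock-high barcodes, against 29.4, 35.2, 31.7 and 31.4 CPM in zero barcodes (log2 difference 0.74 ± 0.10, edgeR, adjusted p = 5.05e-07). Plac8, a monocyte marker, depended on few barcodes. It was detected in 2.25 to 4.14% of heat-shock-high barcodes per library, its difference of 0.81 did not pass without cKO replicate 1 (0.23), and it was -2.20 and past the threshold without state-high barcodes. Among the lowest by the same limits were the adaptor gene Baiap2l2 at -3.90 and the inhibitory receptor gene Lilrb4a at -2.64, with Hist1h1b at -3.79 and Top2a at -2.75 beside Mki67. The choroid plexus marker Ttr was at 0.235, 2.78, 2.32 and 0 CPM in heat-shock-high barcodes, against 192, 5.86, 569 and 0 CPM in zero barcodes. It also depended on few barcodes, being detected in 0.173%, 1.27%, 1.34% and 0% of the zero barcodes in the same order.

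The differences were graded along the level of the 3 chosen genes, as a description over all kept barcodes without depth matching. Hsph1 had 13.3, 19.1, 22.0, 27.5 and 41.6 CPM, here without TMM scaling, in cKO replicate 1 in barcodes at 0, above 0 and under 5, 5 to under 10, 10 to under 20, and 20 or more UMIs of the 3 genes per 10000. In Control replicate 1 the same steps held 9.92, 16.2, 19.6, 28.4 and 39.7. Hsph1 rose at each step in all 4 libraries, and so did Dnaja1 and Hsp90aa1. Cst7 fell at each step in all 4, in cKO replicate 1 through 1007, 587, 231, 112 and 30.7. Fos and P2ry12 gained most of their difference below a level of 5 to 10 and little above it. Just inside the threshold, at 10 to under 11, Dnaja1 had 291 and 576 CPM in the cKO libraries and 423 and 413 CPM in the Control libraries, against 331, 430, 387 and 343 just outside it, at 9 to under 10. In free RNA Hsph1 had 12.6 and 40.0 CPM in cKO replicates 1 and 2, against 8.10 and 8.70 in Control replicates 1 and 2.

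**Figure D3:**
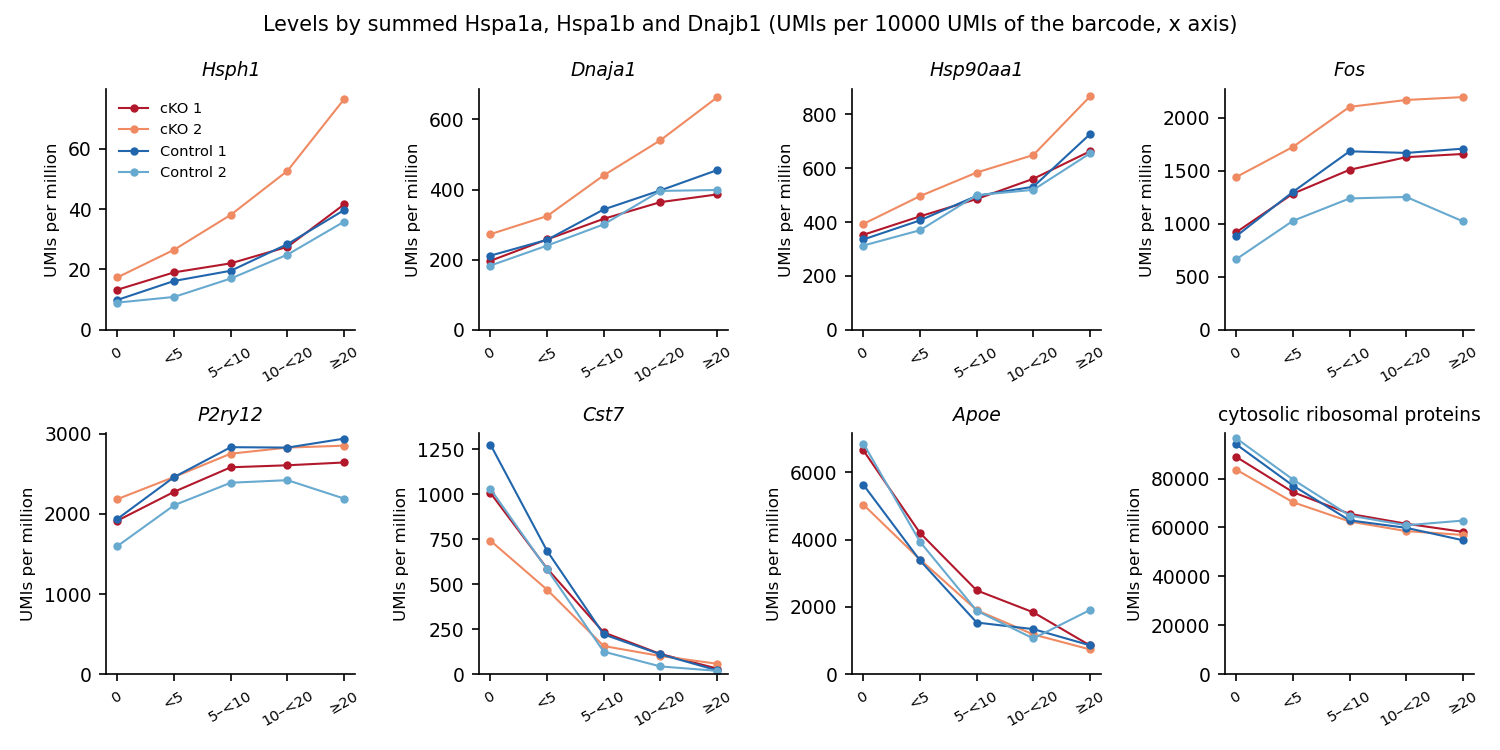
CPM of named genes, and of the summed cytosolic ribosomal protein genes, in barcodes grouped by the summed level of Hspa1a, Hspa1b and Dnajb1 in UMIs per 10000, with 1 line per library. Hsph1, Dnaja1 and Hsp90aa1 climb at each step while Cst7 declines, in cKO replicate 1 to 30.7 in the highest group, against 1007 in barcodes with no UMI of the 3 genes.

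Microglial states were called in the matched barcodes after thinning each to 1900 UMIs outside the 3 chosen genes. To be called MGnD-high, interferon-high or cycling, a barcode needed 3 or more detected genes out of 12 for that state, and 2 out of 4 to be MHC-II-high. MGnD-high barcodes made up 3.63% and 2.12% of heat-shock-high barcodes of the cKO libraries and 2.14% and 2.37% of those of the Control libraries, against 26.8%, 20.6%, 29.8% and 14.8% of zero barcodes in the same libraries. The share was lower in 4 of 4 libraries, by 20.4 percentage points on average (exact two-sided sign-flip test, p = 0.125, the smallest that 4 libraries allow). Cycling barcodes were 3 of 578 and 1 of 472 heat-shock-high barcodes in the cKO libraries and 0 of 373 and 0 of 169 in the Control libraries, for which 3 counts of the total would be shares of 0.804% and 1.78%, against 16, 5, 8 and 1 zero barcodes. MHC-II-high shares were lower by 2.35 points and cycling shares by 1.46 points on average, each in 4 of 4 libraries (exact p = 0.125). Interferon-high shares were 10.0% and 12.1% in the cKO and 12.1% and 14.2% in the Control heat-shock-high barcodes, against 10.7%, 12.5%, 9.92% and 10.7% of zero barcodes, without a common direction (exact p = 0.5). Barcodes in none of the 4 states were 82.6 to 86.4% of all heat-shock-high barcodes and 59.3 to 67.9% of all zero barcodes.

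**Figure D4:**
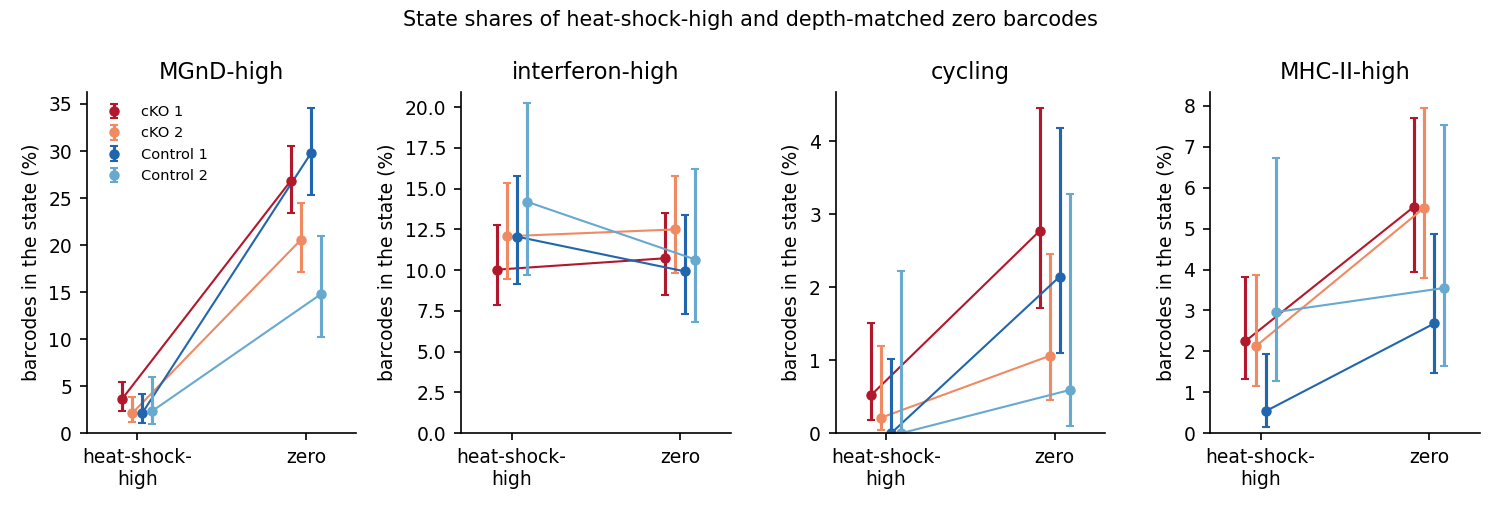
Percent of heat-shock-high barcodes (left in each panel) and depth-matched zero barcodes (right) in each of 4 states, with lines joining the same library and 95% Wilson intervals. MGnD-high shares are 2.12 to 3.63% against 14.8 to 29.8%, while interferon-high shares overlap.

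Whether the 2 genotypes differed among heat-shock-high microglia was tested on 1 sum per library over all of them. Of 10731 genes, 4 were higher (0.0373%) and 3 lower (0.028%) in cKO, 0.0652% in all, at an edgeR adjusted p under 0.05, with 547 at an unadjusted p under 0.05. Cxcl10, an interferon-induced chemokine, had 60.5 and 60.4 CPM in cKO replicates 1 and 2, against 9.69 and 14.3 CPM in Control replicates 1 and 2. Its log2 difference was 2.45 ± 0.20 (edgeR, adjusted p = 3.06e-06). Cdkn1a, the cell cycle inhibitor p21, had 86.9 and 57.1 CPM in the cKO libraries, against 29.5 and 31.7 CPM in the Control libraries (log2 difference 1.23 ± 0.21, edgeR, adjusted p = 0.0189).

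Cx3cr1 had 2664 and 2903 CPM in cKO heat-shock-high barcodes, against 5610 and 4741 CPM in Control ones. It was lower in cKO (log2 difference -0.90 ± 0.12, edgeR, adjusted p = 0.00175). Since the Cre driver was not given, the Cre allele and the deletion cannot be told apart in this difference. The histone gene Hist1h2ac had 38.0 and 36.7 CPM in cKO libraries, against 76.0 and 98.0 CPM in Control libraries (log2 difference -1.17 ± 0.14, edgeR, adjusted p = 0.000454). Id2, an inhibitor of basic helix-loop-helix factors, had 202 and 222 CPM in cKO libraries, against 90.7 and 120 CPM in Control libraries (log2 difference 1.06 ± 0.12, edgeR, adjusted p = 0.000361). The other two genes, Cxcl9 and Ccr1, were below an average log2 CPM of 4 and are named after their values were seen. None of the chaperones of the HSP70, HSP90 and J-domain lists passed, but Hsph1 was among the 10 genes that passed without cKO replicate 1. In zero barcodes, 11 of 11881 genes (0.0926%, with 0.0673% higher and 0.0253% lower) passed in a comparison added after seeing the data. Cdkn1a, Cx3cr1 and Hist1h2ac passed there in the same direction, with log2 differences of 1.19, -0.82 and -0.99. Cxcl9 was also higher in cKO zero barcodes and passed, at 4.15 (edgeR, adjusted p = 0.00133). Cxcl10 at 2.20, Id2 at 0.35 and Ccr1 at -0.13 did not pass there (edgeR, adjusted p = 0.144, 0.765 and 0.97). Without Control replicate 1, 37 genes passed, among them all of the 5 named here, and without cKO replicate 1, 10 passed and Cdkn1a at 0.92 did not (edgeR, adjusted p = 0.0726). At a membership threshold of 20, 9 genes passed, 3 of them among the 7 (Cxcl10, Cx3cr1 and Id2), while Cdkn1a at 0.14 and Hist1h2ac at -0.92 did not (edgeR, adjusted p = 0.991 and 0.721). The neutrophil genes S100a8 and S100a9 were among those higher in cKO zero barcodes, and they depended on few barcodes. In the matched zero barcodes of cKO replicate 2, S100a8 was detected in 0.212%, at 146 CPM without TMM scaling. Among all kept barcodes, those with at least 2 neutrophil markers numbered 2 and 1 in cKO replicates 1 and 2. They numbered 1 and 0 in Control replicates 1 and 2. Neutrophil markers summed to at most 0.406 CPM in the heat-shock-high barcodes of any library.

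The difference between heat-shock-high and zero barcodes itself was compared between genotypes with an interaction term. Of 10858 genes 2 passed (0.0184%), 1 higher and 1 lower (0.00921% each), with 426 at an unadjusted p under 0.05, both by edgeR only, since DESeq2 called 0 genes with 13 at an unadjusted p under 0.05. Ccl12, a monocyte-attracting chemokine, had 312 and 349 CPM in cKO heat-shock-high barcodes and 464 and 644 CPM in Control heat-shock-high barcodes, against 331, 454, 261 and 223 CPM in the matched zero barcodes. In Control libraries it was thus higher in heat-shock-high barcodes and in cKO libraries it was not, an interaction of -1.34 ± 0.14 (log2, edgeR, adjusted p = 5.14e-06). Id2 had 190 and 214 CPM in cKO and 84.1 and 116 CPM in Control heat-shock-high barcodes, against 197, 189, 142 and 203 CPM in zero barcodes, an interaction of 0.84 ± 0.14 (edgeR, adjusted p = 0.00685) that did not pass without cKO replicate 2 or without Control replicate 2 and was -0.01 at a membership threshold of 20.

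**Figure D5:**
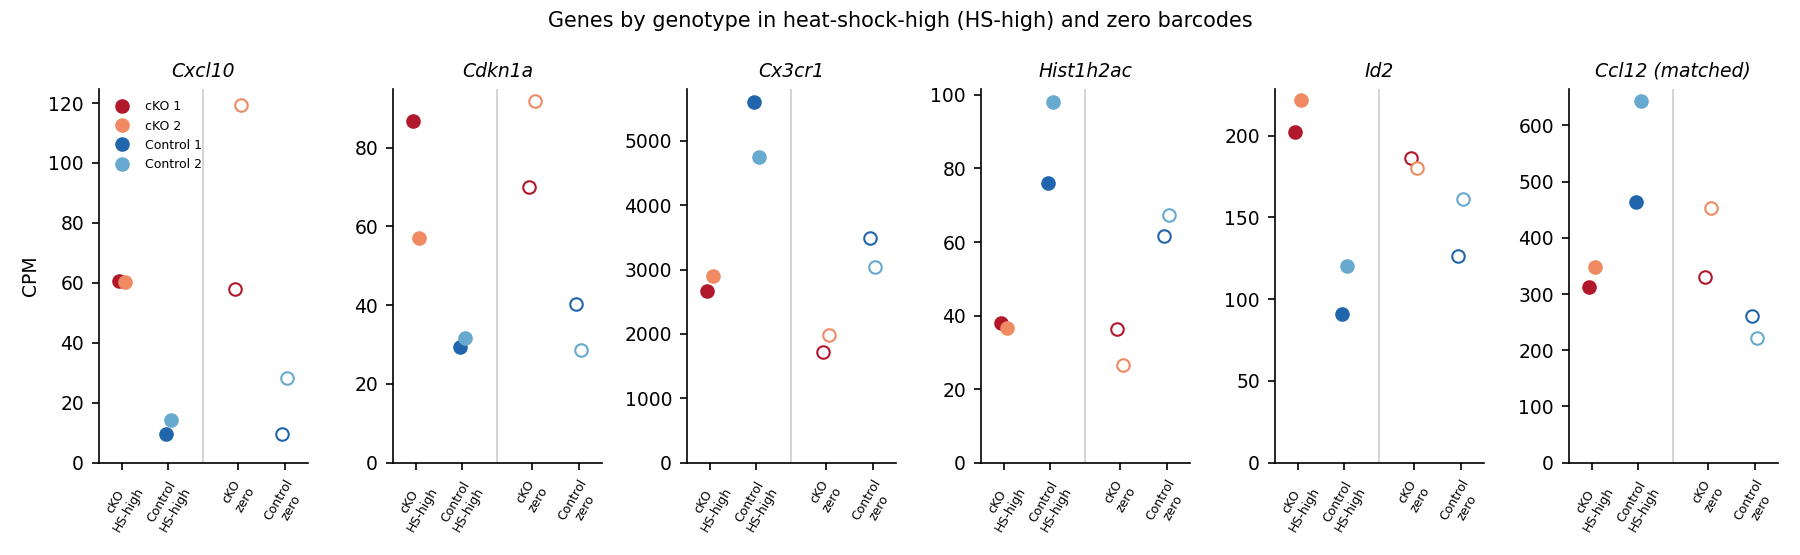
CPM of genes that passed the genotype or interaction test, in heat-shock-high barcodes (filled) and zero barcodes (open), with 1 point per library and cKO left of Control. Ccl12 is shown in depth-matched barcodes and the other genes in all barcodes. Cx3cr1 is lower in cKO in both kinds, and Ccl12 is highest in Control heat-shock-high barcodes, at 464 and 644 CPM.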

How the data were processed

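Per the labels' protocols, cells sorted as CD11b+ and CD45+ went through 10x Genomics 3′ v3.1 chemistry. The authors deposited raw counts of UMIs per gene and barcode, for 32372 gene features, not normalized and with empty droplets included. The submitters' processing notes name Cell Ranger 4.0.0 and mm10. The deposited barcode and feature names label the matrix. Barcodes were filtered, given a level of the 3 genes, matched on depth within each library (bins of 0.25 log2 units) and summed, 8 sums in all. Genes were tested with edgeR 4.0.16 (filterByExpr, TMM, quasi-likelihood F test, two-sided, Benjamini-Hochberg adjustment) in R 4.3.3, checked on simulated data. DESeq2 1.42.0, other thresholds, thinning, no depth matching and leaving out each library were alternatives. Scrublet ran in scanpy 1.11.5; its highest scores, at 0.8% per 1000 barcodes, were left out in an alternative, as were barcodes with at least 2 markers of another class. Named genes were the 12 largest changes per direction past the threshold (8 by p for genotype and interaction) that moved one way in every library at an average log2 CPM of 4 or more, up to 4 per list by p, and 12 checks. The members and the 27 gene lists were chosen with earlier results of these data known. Some genes are not reported here.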

Additional observations from a re-analysis of the deposited data

Results flagged for a closer look

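Ccl12 and Id2 were picked out because the difference between heat-shock-high and zero barcodes was not the same in the 2 genotypes by edgeR's interaction term. For Ccl12 the difference in cKO minus that in Control was -1.34 on the log2 scale, with 312 and 349 CPM in cKO and 464 and 644 CPM in Control heat-shock-high barcodes. For Id2 it was 0.84, with 190 and 214 CPM in cKO and 84.1 and 116 CPM in Control heat-shock-high barcodes. DESeq2 gave neither call, and the Id2 call was lost without cKO replicate 2 (0.71) and without Control replicate 2 (0.82) and the value was -0.01 at a membership threshold of 20.

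The level of Hspa1a, Hspa1b and Dnajb1 in free RNA, from barcodes that no comparison of cells uses, was higher in both cKO libraries, at 4.84 UMIs per 10000 in cKO replicate 1 and 11.7 in cKO replicate 2, than in Control replicates 1 and 2, at 4.02 and 2.21. Its part in the shares of heat-shock-high barcodes was not tested.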

How the results depend on the processing

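The count of 2186 genes that differed between heat-shock-high and zero barcodes was 954 with DESeq2, 1276 without the library block, 1091 with all barcodes thinned to 2000 UMIs and not matched, 3405 and 553 with thresholds of 5 and 20 per 10000, and 510 without state-high barcodes. Leaving out 1 library gave 1412 to 2154. All 954 DESeq2 calls and 538 of the 553 at the higher threshold were among the 2186 with the same sign. The 2 interaction calls became 0 with DESeq2, 5 without the filter on low counts and 8 at a threshold of 20, and 1 to 15 when 1 library was left out. The 7 genotype calls became 9 at a threshold of 20, 3 of them among the 7, 52 without the filter on low counts and 8 to 46 when 1 library was left out. With the replicate number as a block they became 40, 23 higher and 17 lower, with all 7 kept. The labels give only a shared number, so the block is not a known pairing. Deviations of the libraries numbered replicate 1 correlated at 0.047, a single value that cannot settle whether libraries were paired. The difference in interferon-high shares turned to -1.99 points with 1 gene fewer asked for and to -0.533 without depth matching. Among named genes, Hspe1 turned to 0.15 and Hsf1 to -0.17 at a threshold of 20, Hspe1 to 0.12 and Plac8 to -2.20 without state-high barcodes, and the Id2 interaction to -0.01 at a threshold of 20; the cause was not tested. The difference in shares of heat-shock-high barcodes stayed positive in every alternative tried, from 8.14 to 24.3 points. Depth limits genes of a few UMIs per library, such as Mki67 in heat-shock-high barcodes. Scrublet's own threshold called at most 1 doublet per library, and whether it found the doublets here was not tested. Removal of the highest scores at a fixed rate was used in its place.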
